A study of Mus musculus with 4 samples.

Results

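The 71 genes described here encode membrane carriers for glucose, monocarboxylates and amino acids. They were chosen by symbol alone, as every gene of the table whose name is a numbered member of the solute carrier families SLC1, SLC2, SLC3, SLC5, SLC6, SLC7, SLC16, SLC38 or SLC43. The table holds 27115 genes. Some relatives with a letter after the number (Slc5a4a, Slc5a4b, Slc6a20a and Slc6a20b, 4 genes) fall outside this rule. RNA was sequenced from 2 libraries of mouse embryos labelled as overexpressing Trim75 (Trim75 OE) and 2 libraries of control embryos labelled WT. All 4 libraries are of 2-cell embryos cultured in vitro and are labelled day 2. The labels give neither the strain nor the number of embryos per library, and do not say what was introduced into either group. Trim75 encodes a tripartite motif (TRIM) protein. The title presents it as a maternal factor in the first wave of embryonic transcription.

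Solute carriers are membrane proteins that move small molecules into and out of cells. Cleavage-stage mouse embryos take up pyruvate and lactate through proton-coupled monocarboxylate carriers and use little glucose, whose uptake through facilitative glucose transporters grows later, towards the blastocyst. Early embryos also take up glycine and other amino acids, which serve in protein synthesis and as osmolytes that help the cells to hold their volume. Many SLC7 amino acid carriers reach the plasma membrane as light chains that are joined to an SLC3 heavy chain.

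The Trim75 OE libraries held 13349188 and 11124411 counted reads, and the control libraries 9965081 and 14599670. Trim75 stood at 919 and 990 CPM in Trim75 OE embryos and at 171 and 117 CPM in control embryos, where CPM is the read count scaled to a common library size with trimmed-mean (TMM) factors. Its log2 fold change was 2.73 ± 0.28 (SE), with an adjusted p of 0.321 in edgeR and of 5.17e-14 in DESeq2. All 10 listed markers of the 2-cell embryo had reads in every library, with summed levels of 1717 and 1813 CPM in Trim75 OE and of 1225 and 1939 CPM in control embryos. Of 8 cumulus and granulosa cell markers in the table, 2 (Amhr2 and Tnfaip6) were high enough to test, and Fshr, Foxl2 and Has2 were at 0 reads in both Trim75 OE libraries and at no more than 2 in a control library. Others varied within a group: Tnfaip6 had 0 and 136 reads in Trim75 OE and 124 and 3 in control libraries, and Ptgs2 had 0 and 71 in Trim75 OE and 2 and 0 in control libraries. The sum over that list was 41.1 and 47.5 CPM in Trim75 OE and 69.9 and 40.3 CPM in control embryos, most of it from Amhr2, and its part in the results was not tested. Prm2, the only sperm marker in the table, had 5.855 and 3.665 CPM in Trim75 OE and 19.97 and 0 CPM in control embryos. Blood cell markers summed to 12.17 and 7.611 CPM in Trim75 OE and to 12.74 and 15.08 CPM in control embryos. Those of trophectoderm and later embryo summed to 187.4 and 181.5 CPM in Trim75 OE and to 157.9 and 328.8 CPM in control embryos. Oocyte markers had reads in all libraries as well (10 of 10). Their sums were 3525 and 3339 CPM in Trim75 OE and 3004 and 2941 CPM in control embryos. Both Trim75 OE libraries lay above both control libraries for 3 and below for 2, against 24.0% and 19.6% of all tested genes. EdgeR called 0 of them and DESeq2 1, against 0.0% of all tested genes and 5.51% of all genes with a DESeq2 adjusted p. That 1 was Bmp15, with 523.3 and 495.4 CPM in Trim75 OE and 290.9 and 264.9 CPM in control embryos. Library numbers in the titles run separately for each group, and the control titles alone carry the tag L2C, so a batch that follows them and the group cannot be told apart. Nothing in the labels assigns the libraries of a group to separate pools of embryos, so a p-value here reflects only how far these particular libraries vary, and that variation may be technical. Since whole embryos were sequenced, fewer cells with a transcript and less transcript per cell cannot be told apart.

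Transporter transcripts made up a small and similar share of every library. Their summed level was 1262 and 1106 CPM in Trim75 OE and 1095 and 1121 CPM in control embryos, which is 0.124% and 0.106% of the reads in Trim75 OE and 0.114% and 0.112% in control embryos. At least 20 reads were found for 44 and 42 of the 71 genes in Trim75 OE and for 41 and 35 in control libraries, and 36 genes had reads in all 4. The 5 genes with the highest mean CPM over the 4 libraries held 48.2% and 46.0% of the summed transporter level in Trim75 OE. In control embryos they held 48.5% and 49.9%. By FPKM, which also divides by exon length and so permits a comparison between genes, the highest means over the 4 libraries belonged to Slc16a1 (35.6), Slc16a6 (34.6), Slc3a2 (24.2), Slc5a6 (18.2), Slc1a5 (15.1) and Slc7a5 (11.2). The lowest of these is the light chain that pairs with the Slc3a2 product, and the next genes in the order were Slc16a10 (8.81), Slc2a1 (7.03), Slc6a9 (6.14) and Slc43a3 (6.01 FPKM).

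**Figure D1:**
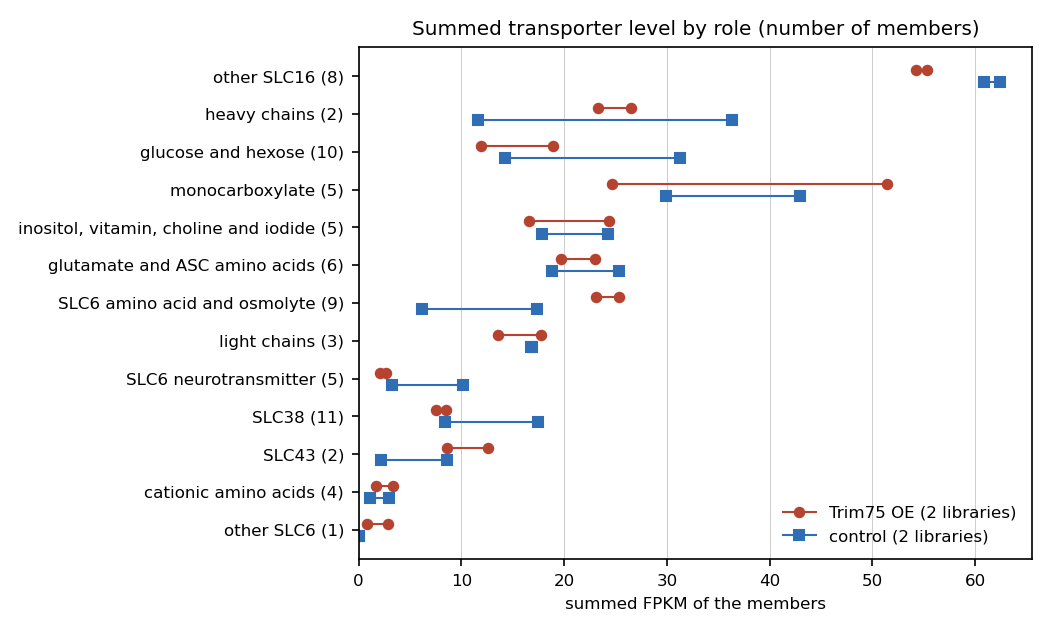
Summed FPKM of the transporter genes in each role (number of genes in brackets), with 1 point per library, red circles for Trim75 OE and blue squares for control, joined within a group. The other SLC16 carriers sum to 54.2 and 55.3 FPKM in Trim75 OE and to 62.4 and 60.9 FPKM in control, while the ranges of the groups overlap in the monocarboxylate, glucose and heavy chain roles.

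No transporter gene passed the main test at this replication. A filter on low counts left 48 of the 71 genes for edgeR's quasi-likelihood test, and 0 of them had an adjusted p under 0.05, as among all 16801 genes tested (0.0%). The lowest adjusted p in edgeR was 0.321. With no adjustment, 5 of the 48 (10.4%) had an edgeR p under 0.05, against 11.2% of all tested genes. DESeq2 called 4 of the 46 transporter genes to which it gave an adjusted p (8.7%), 3 of them higher and 1 lower in Trim75 OE, against 5.51% of all genes with one. Those 4 calls were Slc5a12, Slc6a21, Slc16a3 and Slc6a13, and each had no more than 1 read in a library of 1 of the groups. Such a gene could pass the low-count filter only through its high group, so a difference in it was built in. These 4 calls did not all hold with 1 library left out, and the number of DESeq2 calls over all genes changed as well. On FPKM, limma called 0 of the transporter genes with either pseudocount tried, as among all tested genes.

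Both Trim75 OE libraries lay above both control libraries for 14 of the 48 genes (29.2%), against 24.0% of all tested genes. Both lay below for 7 (14.6%), against 19.6% of all tested genes, and the groups overlapped for the other 27. The median log2 fold change of the 48 was 0.04, with quartiles of -0.63 and 1.27, and that of all tested genes was 0.03, with quartiles of -0.64 and 0.77. Without Trim75 OE replicate 1 the median was -0.27 over the 54 transporter genes then tested, and without control replicate 1 it was 0.72 over 52. A gene that passed the filter only through the group in which it was high had to differ, so these counts describe the tested genes and not all 71.

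**Figure D2:**
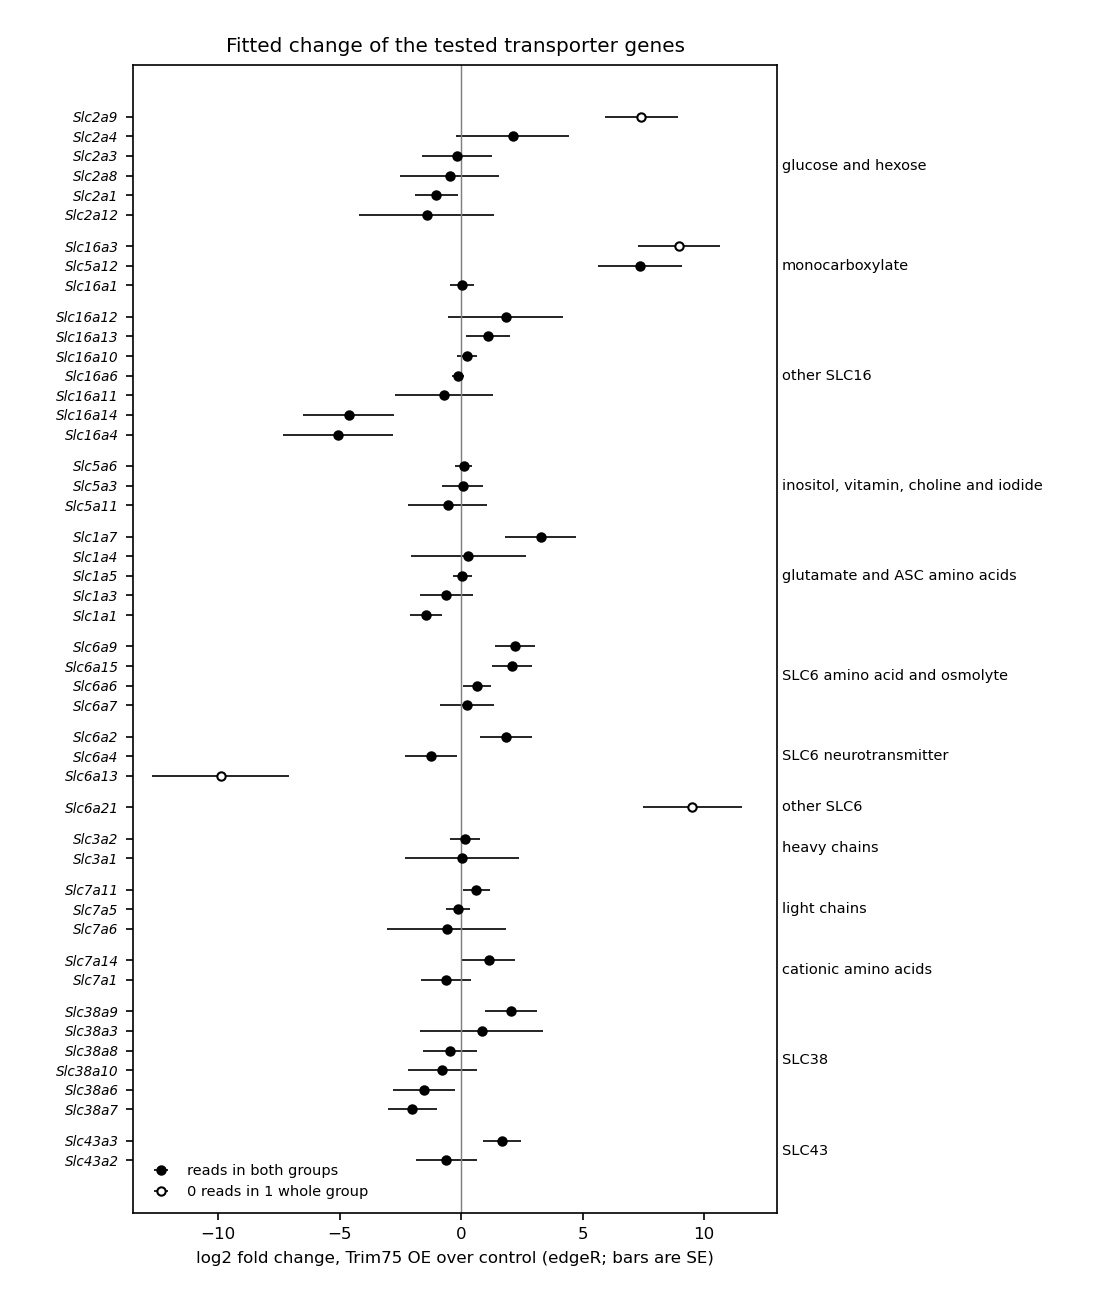
Log2 fold change of Trim75 OE over control for 47 of the 48 tested transporter genes, grouped by role, from edgeR, with bars of 1 SE. Open circles mark the 4 genes with 0 reads in 1 whole group, whose fitted value depends on the prior count, and Slc16a6 and Slc16a1 lie near 0.

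Monocarboxylate carriers comprised the transporter with the highest mean FPKM and some of the rarest. Slc16a1 encodes MCT1, a proton-coupled carrier of lactate, pyruvate and ketone bodies. It had 217.9 and 101 CPM in Trim75 OE embryos and 123 and 190.4 CPM in control embryos. The highest and the lowest library were both Trim75 OE, so the groups overlapped fully, and the log2 fold change was 0.02 ± 0.49 (SE), with an adjusted p of 0.997 in edgeR. Slc16a3, which encodes MCT4, a low-affinity carrier that many glycolytic cells use for lactate export, had 83 and 42 reads in Trim75 OE libraries (6.31 and 3.95 CPM) and 0 and 0 reads in control libraries. Counted against a floor of 3 reads over the control group, this is at least 43.7-fold higher in Trim75 OE, for counting error only. Slc16a3 passed the filter through Trim75 OE alone, so a difference was built in. The adjusted p was 0.321 in edgeR and 0.0435 in DESeq2, and in DESeq2 it was 0.0849 without control replicate 2.

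Slc5a12 encodes SMCT2, a sodium-coupled monocarboxylate carrier of the kidney and retina. Its reads numbered 94 and 90 in Trim75 OE libraries (7.15 and 8.46 CPM), against 0 and 1 in control libraries (0 and 0.069 CPM). The groups lay far apart with little spread inside either, but the gene passed the filter through Trim75 OE alone. The ratio of scaled reads was 193 (95% exact interval 34.2 to 7660, for counting error only), the adjusted p was 0.321 in edgeR and 0.0129 in DESeq2, and without Trim75 OE replicate 1 the DESeq2 value was 0.521. By FPKM, Slc5a12 reached 1.73 and 1.99 in Trim75 OE embryos, where Slc16a1 stood at 48.5 and 21.8. The other carriers of this role were too low to test. Slc16a7, which encodes the high-affinity pyruvate carrier MCT2, had 3 and 23 reads in Trim75 OE and 0 and 2 in control libraries. The ratio was 13.6 (95% exact interval 3.41 to 119, for counting error only). All 21 reads of Slc16a8 (MCT3, a carrier of the retinal pigment epithelium) came from control replicate 1.

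The most abundant monocarboxylate gene and the one with no control reads are set beside each other here by promoter. The windows run from 250 bases before to 50 after the RefSeq transcript start (GRCm38.p6, plus strand, 5′ to 3′), at chr3:104638414-104638713 for Slc16a1 and at chr11:120948817-120949116 for Slc16a3. Capitals mark a GC box, GGGCGG on either strand.
Slc16a1: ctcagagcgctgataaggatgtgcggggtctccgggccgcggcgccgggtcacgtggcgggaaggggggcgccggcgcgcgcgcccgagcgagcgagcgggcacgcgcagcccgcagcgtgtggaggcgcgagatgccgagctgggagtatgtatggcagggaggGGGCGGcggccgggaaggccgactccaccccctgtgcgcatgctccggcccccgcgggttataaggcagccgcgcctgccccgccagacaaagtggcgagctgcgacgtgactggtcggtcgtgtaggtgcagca
Slc16a3: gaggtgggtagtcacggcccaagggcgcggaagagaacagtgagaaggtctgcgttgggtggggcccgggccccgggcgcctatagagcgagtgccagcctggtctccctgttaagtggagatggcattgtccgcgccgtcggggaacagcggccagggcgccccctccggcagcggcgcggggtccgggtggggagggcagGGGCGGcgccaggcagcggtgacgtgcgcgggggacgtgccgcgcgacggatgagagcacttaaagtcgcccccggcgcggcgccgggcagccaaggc
Both windows are rich in CpG, with 42 CpG dinucleotides in that of Slc16a1 and 36 in that of Slc16a3. Of all 32851 RefSeq windows of this length, 97.4% hold at most as many as Slc16a1 and 94.4% at most as many as Slc16a3. A GC box was found in 1 place in each, and 35.7% of all windows have at least 1. Neither window contained CCAAT, found in 37.4% of all windows, or TATAAA, found in 13.6%, on either strand.

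Other members of SLC16 carry aromatic amino acids, creatine or substrates that are less well known. Slc16a6, whose product (MCT7) exports ketone bodies from the liver in zebrafish, had 148 and 178 CPM in Trim75 OE and 164 and 190.0 CPM in control embryos. Its SE was the smallest of the 24 named genes, at a log2 fold change of -0.12 ± 0.25, and the edgeR adjusted p was 0.958. Part of its exon sequence (23.5%) is shared with other genes, mainly Amz2 on the opposite strand, and the strand setting of the counting is not given in the sources used here. Amz2 itself had 21.3 and 34.8 CPM in Trim75 OE and 3.18 and 26.8 CPM in control embryos. Slc16a10 (TAT1), a carrier of tryptophan, tyrosine and phenylalanine, had 72.2 and 69.9 CPM in Trim75 OE and 44.6 and 74.9 CPM in control embryos, a log2 fold change of 0.25 ± 0.41 (SE) with an edgeR adjusted p of 0.946.

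For Slc16a13 the Trim75 OE libraries had 10.5 and 26.2 CPM and the control libraries 6.85 and 10.3 CPM, so the groups were apart by a narrow gap. In edgeR it had a log2 fold change of 1.10 ± 0.90 (SE), with an edgeR adjusted p of 0.818. Slc16a11, whose 3′ end lies 371 bases from its own on chromosome 11, had 20.9 and 0.28 CPM in Trim75 OE and 30.1 and 4.32 CPM in control embryos. These neighbours on opposite strands did not share an order of libraries: Slc16a13 was highest and Slc16a11 lowest in Trim75 OE replicate 2. Slc16a12, a creatine carrier, had 10.7 and 6.77 CPM in Trim75 OE and 4.92 and 0 CPM in control embryos, a log2 fold change of 1.83 ± 2.37 (SE) with an edgeR adjusted p of 0.915. Slc16a4 had 9 and 0 reads in Trim75 OE and 44 and 284 in control libraries. Its log2 fold change was -5.06 ± 2.26 (SE), with an adjusted p of 0.537 in edgeR and 0.11 in DESeq2. Slc16a4 passed the filter through the control group alone, so a difference was built in. Slc16a14 was also lower in both Trim75 OE libraries, with 0 and 2 reads against 10 and 58 in control libraries. The ratio was 0.0308 (95% exact interval 0.00366 to 0.116, for counting error only). Its log2 fold change was -4.63 ± 1.87 (SE), with an edgeR adjusted p of 0.49. This gene too passed the filter through the control group alone. All 127 reads of Slc16a5 came from control replicate 1, and this gene was not tested in edgeR.

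Among the glucose and hexose carriers, 10 genes of which 6 were tested, no order of the groups was shared. Slc2a1 (chromosome 4, 119108711 to 119137983, plus strand, mm10) encodes GLUT1, the facilitative glucose transporter of most cells. It had 25.85 and 6.30 CPM in Trim75 OE and 39.6 and 25.92 CPM in control embryos. The groups did not overlap, but Trim75 OE replicate 1 almost reached control replicate 2. The log2 fold change was -1.02 ± 0.89 (SE), with an adjusted p of 0.834 in edgeR. It was -2.40 without Trim75 OE replicate 1 and -0.34 without Trim75 OE replicate 2. Slc2a3 (GLUT3, a high-affinity transporter that the blastocyst uses) had 19.5 and 10.6 CPM in Trim75 OE, inside the control values of 32.3 and 1.78 CPM. Slc2a8 (GLUT8, an intracellular transporter described in the blastocyst) had 19.0 and 11.7 CPM in Trim75 OE, again between the control values of 42.6 and 0.206 CPM.

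The insulin-responsive Slc2a4 (GLUT4) had 7.91 and 5.92 CPM in Trim75 OE and 3.18 and 0 CPM in control embryos, with an edgeR adjusted p of 0.89. Slc2a12 was seen almost entirely in the second library of each group, with 0.608 and 9.68 CPM in Trim75 OE and 0 and 27.4 CPM in control embryos. Slc2a9, a urate transporter, had 31 and 12 reads in Trim75 OE and 0 and 0 in control libraries. This is at least 15.03-fold higher in Trim75 OE, for counting error only, in a gene that passed the filter through Trim75 OE alone. Its adjusted p was 0.321 in edgeR, and DESeq2 gave none. Slc2a7 had 5 and 26 reads in Trim75 OE and 0 and 0 in control libraries and was not tested. Slc2a10, Slc2a6 and the intestinal sodium-glucose cotransporter Slc5a1 had at most 7 reads in any library. Summed over the 10 genes, FPKM was 18.9 and 11.9 in Trim75 OE and 31.2 and 14.2 in control embryos, with control replicate 1 above the rest.

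The related SLC5 and SLC2 carriers of inositol, vitamins and iodide numbered 5, of which 3 were tested. Slc5a6, the sodium-dependent transporter of biotin and pantothenate, was the most abundant, with 88.6 and 62.2 CPM in Trim75 OE and 75.4 and 64.8 CPM in control embryos. Its groups overlapped, at a log2 fold change of 0.11 ± 0.36 (SE) with an edgeR adjusted p of 0.979. A stretch of 1897 bases of its transcript is 97.8% identical to Gm6157, and how reads common to both were counted is not given in the sources used here. Slc5a3, which takes up myo-inositol as an osmolyte, had 13.6 and 11.7 CPM in Trim75 OE and 8.39 and 15.8 CPM in control embryos. Slc5a11, another inositol carrier, had 3.65 and 1.79 CPM in Trim75 OE and 7.62 and 0.411 CPM in control embryos. Slc2a13 had at most 4 reads in any library, and all 25 reads of the iodide transporter Slc5a5 came from control replicate 1.

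**Figure D3:**
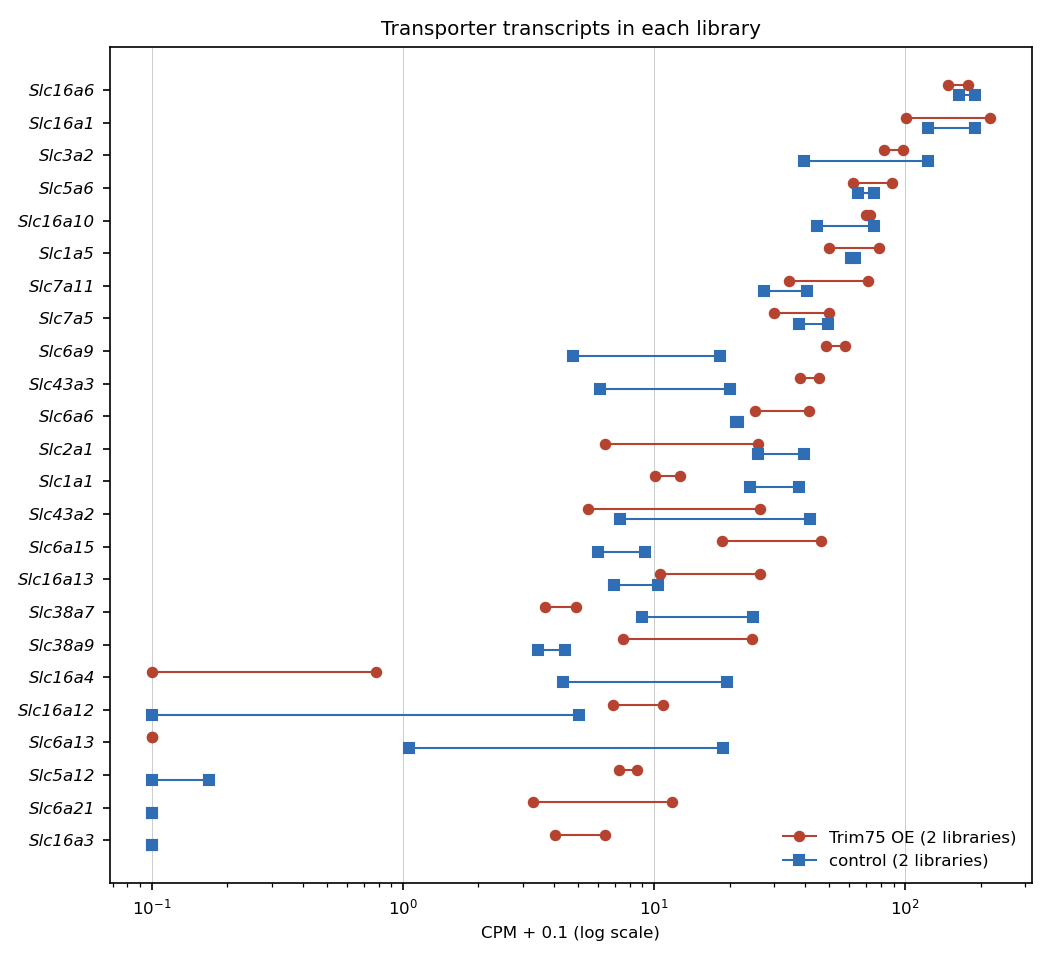
CPM + 0.1 on a log axis for the 24 transporter genes named by rule, with red circles for the 2 Trim75 OE libraries and blue squares for the 2 control libraries, joined within a group. The most abundant genes overlap between groups, Slc6a9, Slc43a3 and Slc6a15 lie higher in both Trim75 OE libraries, and genes at 0 CPM sit at 0.1.

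Among the SLC6 amino acid and osmolyte carriers, all 4 tested members had a log2 fold change above 0, as did 51.3% of all tested genes. In 3 of them both Trim75 OE libraries were above both control libraries, against 24.0% of all tested genes, and none passed edgeR or DESeq2. Slc6a9 (chromosome 4, 117834506 to 117875198, plus strand, mm10) encodes GLYT1, the glycine transporter through which mouse oocytes and early embryos accumulate glycine for volume control. It had 636 and 612 reads in Trim75 OE libraries (48.4 and 57.5 CPM), against 189 and 68 in control libraries (18.2 and 4.66 CPM). In CPM the gap between the groups was wider than the spread within either, and the log2 fold change was 2.21 ± 0.84 (SE). The adjusted p was 0.453 in edgeR and 0.107 in DESeq2, so neither test was passed. The fitted log2 value was 3.49 without control replicate 1 and 1.54 without control replicate 2. Of its exon bases, 27.8% overlap Ccdc24 on the opposite strand, which was not analysed here.

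Slc6a15 (chromosome 10, 103367783 to 103419377, plus strand, mm10) encodes a carrier of branched-chain amino acids and proline known from neurons. Its values were 18.5 and 46.1 CPM in Trim75 OE and 5.89 and 9.12 CPM in control embryos. The groups were apart. Its log2 fold change was 2.10 ± 0.82 (SE), with an adjusted p of 0.466 in edgeR and 0.149 in DESeq2. Slc6a6, the taurine transporter, had 41.3 and 25.2 CPM in Trim75 OE and 21.03 and 21.5 CPM in control embryos, a log2 fold change of 0.65 ± 0.57 (SE) with an edgeR adjusted p of 0.838. Slc6a7, a proline transporter, had 31.1 and 11.3 CPM in Trim75 OE and 30.7 and 5.35 CPM in control embryos, with replicate 1 higher in both groups. The FPKM sum over the 9 genes of this role was 25.4 and 23.1 in Trim75 OE and 17.35 and 6.20 in control embryos.

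The other 5 carriers of the role were below the filter. All 59 reads of Slc6a5, the neuronal glycine transporter GLYT2, came from control replicate 1. The creatine transporter Slc6a8 had 0 and 42 reads in Trim75 OE and 4 and 0 in control libraries. Slc6a12, Slc6a14 and Slc6a18 had at most 2 reads in any library. The letter-named relatives Slc6a20a and Slc6a20b, named after their values were seen, were lower in both Trim75 OE libraries. Slc6a20a had 28.2 and 15.2 CPM in Trim75 OE and 38.2 and 28.6 CPM in control embryos, and Slc6a20b had 10.7 and 10.9 CPM in Trim75 OE and 26.6 and 19.8 CPM in control embryos.

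The neurotransmitter branch of SLC6 was low, apart from Slc6a13 in control replicate 1 (18.7 CPM). Slc6a13 (GAT2), a transporter of GABA and taurine in liver and kidney, was at 0 and 0 reads in Trim75 OE libraries and at 194 and 14 in control libraries. Scaled reads pooled over both control libraries were 66.1-fold above a floor of 3 reads over Trim75 OE, for counting error only. That bound rests mostly on control replicate 1, and Slc6a13 passed the filter through the control group alone. The adjusted p was 0.383 in edgeR and 0.0149 in DESeq2. The DESeq2 log2 fold change of Slc6a13 was -9.295 with all libraries and -5.984 without control replicate 1. Of its summed CPM, 95.1% came from control replicate 1, and the DESeq2 value was 0.209 without Trim75 OE replicate 1 and 0.23 without Trim75 OE replicate 2. Its neighbour Slc6a12, 5342 bases away on chromosome 6, had no more than 2 reads anywhere. The serotonin transporter Slc6a4 had 3.65 and 2.07 CPM in Trim75 OE and 7.43 and 6.10 CPM in control embryos. The noradrenaline transporter Slc6a2 had 5.55 and 3.10 CPM in Trim75 OE and 1.35 and 1.03 CPM in control embryos. Slc6a11 had 0 and 0 reads in Trim75 OE and 24 and 2 in control libraries.

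Slc6a21, a member of the family whose substrate is not established, had 42 and 125 reads in Trim75 OE libraries and 0 and 0 in control libraries. This is at least 58.4-fold higher in Trim75 OE, for counting error only, in a gene that passed the filter through Trim75 OE alone. The adjusted p was 0.321 in edgeR and 0.0138 in DESeq2, and the DESeq2 value was 0.273 without Trim75 OE replicate 1.

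Carriers of glutamate and of alanine, serine and cysteine (SLC1) were led by Slc1a5, which encodes the glutamine exchanger ASCT2. It had 78.9 and 49.8 CPM in Trim75 OE and 60.98 and 63.4 CPM in control embryos. The control values fell between those of Trim75 OE, and the log2 fold change was 0.05 ± 0.40 (SE), with an edgeR adjusted p of 0.993. Slc1a1 (chromosome 19, 28835049 to 28913960, plus strand, mm10) encodes EAAC1, a high-affinity carrier of glutamate, aspartate and cysteine. Its values were 10.04 and 12.6 CPM in Trim75 OE and 24.1 and 37.7 CPM in control embryos. It was lower in both Trim75 OE libraries. The log2 fold change was -1.45 ± 0.65 (SE), with an adjusted p of 0.542 in edgeR and 0.271 in DESeq2. A protein-coding gene on the opposite strand, 4430402I18Rik, covers 31.9% of the exon bases of Slc1a1 and was not analysed here.

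Slc1a4, the neutral amino acid exchanger ASCT1, had 9.58 and 14.2 CPM in Trim75 OE and 0 and 19.5 CPM in control embryos, so the control libraries alone spanned the whole range. Slc1a7, a glutamate transporter of the retina, had 23 and 120 reads in Trim75 OE and 8 and 8 in control libraries, with an edgeR adjusted p of 0.535. Slc1a7 passed the filter through Trim75 OE alone, so a difference was built in. Slc1a3, a glutamate transporter of glia, had 2.36 and 1.22 CPM in Trim75 OE and 1.54 and 3.91 CPM in control embryos. Slc1a6 had 4 reads in all.

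Heteromeric carriers need a heavy chain, and Slc3a2 (4F2hc, also called CD98) was the abundant one. It had 82.1 and 97.9 CPM in Trim75 OE, within the control values of 123 and 39.5 CPM. The log2 fold change was 0.15 ± 0.62 (SE), with an adjusted p of 0.986 in edgeR. Slc3a1 (rBAT), the other heavy chain, had 12 and 0 reads in Trim75 OE and 0 and 13 in control libraries, and 26.5% of its exon bases are shared with Prepl.

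Of the light chains, Slc7a5 (LAT1, an exchanger of large neutral amino acids such as leucine) had 49.8 and 29.98 CPM in Trim75 OE and 49.1 and 37.9 CPM in control embryos, a log2 fold change of -0.12 ± 0.50 (SE) with an edgeR adjusted p of 0.985. Slc7a11 (xCT, the cystine-glutamate exchanger that feeds glutathione synthesis) had 34.3 and 70.8 CPM in Trim75 OE and 40.7 and 27.3 CPM in control embryos. Its groups overlapped, and the log2 fold change was 0.63 ± 0.57 (SE), with an edgeR adjusted p of 0.844. Stretches of its transcript are at least 90% identical to parts of many other transcripts, so its level is less certain. Slc7a6 (y+LAT2) had 9.66 and 4.60 CPM in Trim75 OE, between the control values of 0 and 21.6 CPM. By FPKM, Slc3a2 stood at 22.9 and 26.5 in Trim75 OE and at 36.3 and 11.2 in control embryos. Its partner Slc7a5 stood at 13.23 and 7.73 FPKM in Trim75 OE and at 13.8 and 10.2 FPKM in control embryos, below the heavy chain in every library.

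Cationic amino acid carriers of SLC7 were low. Slc7a1 (CAT1, the arginine and lysine transporter of most cells) had 5.10 and 14.3 CPM in Trim75 OE and 8.30 and 21.9 CPM in control embryos, higher in replicate 2 of each group. Slc7a14, a related protein of neurons and the retina, had 8.21 and 22.1 CPM in Trim75 OE and 3.28 and 10.6 CPM in control embryos. Slc7a2 had 53 of its reads in Trim75 OE replicate 1 and at most 4 in any other library, and Slc7a3 had 2 reads in all.

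The SLC38 family moves glutamine and other small neutral amino acids, and 6 of its 11 members were tested. Slc38a9, a lysosomal arginine sensor that acts upstream of mTORC1, had 24.6 and 7.42 CPM in Trim75 OE and 4.34 and 3.36 CPM in control embryos. The groups were apart, mostly through Trim75 OE replicate 1. The log2 fold change was 2.05 ± 1.06 (SE), with an edgeR adjusted p of 0.617. Slc38a7, a lysosomal exporter of glutamine, showed the opposite order, with 3.57 and 4.79 CPM in Trim75 OE and 8.88 and 24.8 CPM in control embryos. Its log2 fold change was -2.005 ± 1.004 (SE), with an edgeR adjusted p of 0.599.

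Slc38a8 had 4.79 and 19.4 CPM in Trim75 OE and 7.91 and 25.1 CPM in control embryos, and Slc38a6 had 2.51 and 6.48 CPM in Trim75 OE and 4.25 and 21.7 CPM in control embryos. Both were higher in replicate 2 of each group. The level of Slc38a6 is less certain, since 3240 bases of its transcripts are 98.5% identical to Noct and other transcripts resemble it too. Slc38a10 had 9.05 and 0.846 CPM in Trim75 OE and 9.07 and 8.02 CPM in control embryos, while Slc38a3 had 10.95 and 1.88 CPM in Trim75 OE and 7.14 and 0 CPM in control embryos. The system A carriers that many dividing cells use for glutamine had few reads. Slc38a2 had 12 and 6 reads in Trim75 OE and 3 and 5 in control libraries, and Slc38a1 had 5 and 5 in Trim75 OE and 1 and 3 in control libraries. Slc38a5 had 8 reads, all in Trim75 OE replicate 2, and Slc38a4 and Slc38a11 had at most 2 in any library.

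SLC43 carriers move large neutral amino acids and, in the case of Slc43a3, purine bases. Slc43a3 (chromosome 2, 84936579 to 84958509, plus strand, mm10) had 45.5 and 37.96 CPM in Trim75 OE and 5.98 and 19.95 CPM in control embryos. Both Trim75 OE libraries were higher. The log2 fold change was 1.68 ± 0.79 (SE), with an adjusted p of 0.565 in edgeR and 0.3 in DESeq2. It was 1.05 without control replicate 1 and 2.80 without control replicate 2. Slc43a2 (LAT4) had 26.4 and 5.36 CPM in Trim75 OE, inside the control values of 7.24 and 41.6 CPM. Its log2 fold change was -0.62 ± 1.26 (SE), with an edgeR adjusted p of 0.955.

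The spread between libraries of the same group was large for many of these genes. Of the 48 tested, 12 differed at least 10-fold between the 2 libraries of a group, with 3 reads as the floor per library, against 20.1% of all tested genes. This occurred in Trim75 OE for 3 genes and in control for 10, and Slc2a12 was among both. Among all tested genes the share was 7.06% in Trim75 OE and 16.8% in control. Slc16a11 differed 74.2-fold between the Trim75 OE libraries. Slc2a8 differed 206.9-fold between the control libraries, Slc2a12 94.8-fold, Slc7a6 74.6-fold and Slc1a4 67.3-fold. None of the 8 transporter genes with a mean of 20 to 50 CPM or of the 6 above 50 CPM did so, against 9.23% and 0.566% of all tested genes in these ranges. Below that level it was 4 of 14 genes under 5 CPM and 8 of 20 genes from 5 to 20 CPM, against 32.0% and 33.9% of all tested genes in these ranges. A further 5 genes (Slc16a5, Slc6a5, Slc5a5, Slc6a11 and Slc16a8) had at least 20 reads in control replicate 1 and under 3 in each other library, 7.04% of the 71, against 1.6% of all genes for that library and 7.06% of all genes for any 1 of the 4. These 5 and the genes named for their spread were chosen after their values were seen.

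**Figure D4:**
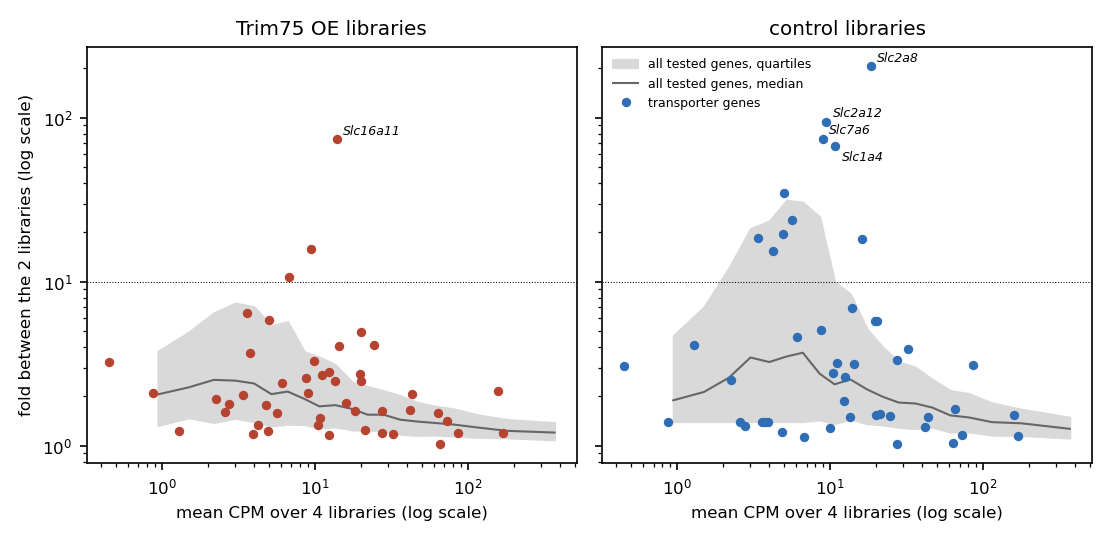
Fold between the 2 libraries of a group against mean CPM over the 4 libraries, both on log axes, for 47 of the 48 tested transporter genes (points), with Trim75 OE in the left panel and control in the right. The line and the shaded band give the median and quartiles of all tested genes in bins of mean CPM, and the dotted line at 10-fold has 3 points above it in Trim75 OE and 10 in control.

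A list of 21 genes holds partners of these transporters, factors of their traffic, and kinases and transcription factors known to regulate them. Of these, 17 were tested, edgeR called 0 (against 0.0% of all tested genes) and DESeq2 called 1 (against 5.51% of all genes with an adjusted p). That gene was Nedd4, an E3 ubiquitin ligase that marks membrane carriers for endocytosis, with 51.2 and 41.6 CPM in Trim75 OE and 143.6 and 99.5 CPM in control embryos. Its log2 fold change was -1.39 ± 0.36 (SE), with an adjusted p of 0.322 in edgeR and 0.0369 in DESeq2, and DESeq2 called 0 genes of these lists without Trim75 OE replicate 1 or without Trim75 OE replicate 2. Its close relative Nedd4l, named after its values were seen, had the opposite order, with 158.3 and 194.5 CPM in Trim75 OE and 98.03 and 59.4 CPM in control embryos. Its log2 fold change was 1.17 ± 0.36 (SE), with an adjusted p of 0.365 in edgeR and 0.0946 in DESeq2. Of the chaperones of monocarboxylate carriers, Bsg (basigin), named after its values were seen, had 46.6 and 47.2 CPM in Trim75 OE and 42.6 and 77.3 CPM in control embryos. Emb (embigin), likewise, overlapped too and had 51.7 and 35.5 CPM in Trim75 OE and 46.7 and 50.1 CPM in control embryos. Over the 17 genes, 4 lay higher and 3 lower in both Trim75 OE libraries, against 24.0% and 19.6% of all tested genes, and the median log2 fold change was -0.15.

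In a list of 28 amino acid sensing genes, 26 were tested. EdgeR called 0 of them (against 0.0% of all tested genes) and DESeq2 called 0 (against 5.51% of all genes with an adjusted p). Both Trim75 OE libraries were higher for 3 of them and lower for 5, against 24.0% and 19.6% of all tested genes, and the median log2 fold change was -0.03. The most abundant, Rragc, a Rag GTPase that brings mTORC1 to the lysosome, had 486.9 and 416.9 CPM in Trim75 OE and 405.6 and 345.4 CPM in control embryos, a log2 fold change of 0.27 ± 0.22 (SE). Sesn2, a leucine sensor that restrains mTORC1, had 308.5 and 239.6 CPM in Trim75 OE and 434 and 331 CPM in control embryos, a log2 fold change of -0.48 ± 0.27 (SE). Neither passed the edgeR test.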

How the data were processed

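Per the labels' protocols, RNA was harvested with a kit named mMACHINE and libraries were built with the TruePrep DNA Library Prep Kit V2. FastQC, Trim Galore, HISAT2, featureCounts and the mm10 genome are named in the submitters' processing notes, without versions, strand setting or treatment of multi-mapped reads. The authors deposited whole-number read counts per gene, not normalized, and per the file headers FPKM values beside them. No molecular identifiers are described, so exact intervals (95%) and floors of 3 reads cover counting error only.

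The test of the counts was edgeR's quasi-likelihood test (edgeR 4.0.16, R 4.3.3) between the groups, after filterByExpr and TMM scaling, fitted to the whole table. Adjustment was by Benjamini-Hochberg over 16801 genes with a threshold of 0.05. The SE is the log2 fold change divided by the square root of the F statistic. DESeq2 (1.42.0) ran on the whole table. Alternatives were RLE and total-count scaling, other filters (none, or 5 CPM in at least 2 libraries), a replicate block, fits without each library, and limma (3.58.1) on log2(FPKM + 1) and log2(FPKM + 0.1). DESeq2 with each library left out was added after the data were seen. The edgeR fit was tested on simulated data at the spread of these libraries (biological coefficient of variation 0.908) and at a smaller one. Recovery at the larger spread is not reported here, so how many changes edgeR could miss in these libraries is not given. Positions and exon overlaps came from GENCODE M21 (all 71 genes found), similar transcripts from blastn (2.17.0; at least 90% identity over 300 bases) and promoters from RefSeq GRCm38.p6, where 50 of the 71 had a window. Figures used matplotlib (3.10.9) in Python (3.11.15).

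The genes and lists were chosen with earlier results of these data known. Named with the value in every library were genes past edgeR or DESeq2, the 15 with the highest mean CPM, and genes of at least 5 CPM whose groups did not overlap, 24 in all. From the partner and sensing lists, genes past a test were named, otherwise the 2 most abundant. Genes outside the rule are described briefly. Values of 1 tested gene are not reported here.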

Additional observations from a re-analysis of the deposited data

How the results depend on the processing

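Every edgeR and limma alternative gave 0 calls among all genes, the transporter genes and the partner and sensing lists, the fit with the replicate number as a block included. DESeq2 gave 885, 4 and 1. With each library left out in turn, an alternative chosen after seeing the data, DESeq2 gave 2379 genes without control replicate 1, 1127 without control replicate 2, 180 without Trim75 OE replicate 1 and 130 without Trim75 OE replicate 2, with 0 to 9 transporter genes and 0 to 6 list genes. The median log2 fold change of the transporter genes, 0.04 as reported, was 0.42 with the replicate block, 0.22 by limma on log2(FPKM + 0.1) and -0.271 to 0.722 with each library left out, over 52 to 56 genes. The cause was not tested. Same-numbered libraries did not deviate together (correlation 0.0126 over 16801 genes), so the block describes no known pairing, and it changed no call.

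Of the 24 named genes, 17 kept their direction in every setting run for them and 7 did not (up to 12 settings, and DESeq2 without each library for the 4 genes DESeq2 called). Slc1a5 stood at -0.014 with total-count scaling and at -0.052 and -0.058 by limma (pseudocounts 1 and 0.1). Slc16a1 stood at -0.032 with total-count scaling, -0.047 with the replicate block, and -0.11 and -0.12 by limma. With each library left out, the log2 fold change ran from -0.345 to 0.345 for Slc1a5, -0.196 to 0.341 for Slc5a6, -0.456 to 1.178 for Slc3a2, -0.086 to 0.67 for Slc16a10, -0.664 to 0.474 for Slc16a1, -0.56 to 0.199 for Slc7a5 and -2.218 to 1.131 for Slc43a2. Of the others, it ran from 1.535 to 3.492 for Slc6a9, -2.4 to -0.336 for Slc2a1, 1.053 to 2.798 for Slc43a3, 1.299 to 2.591 for Slc6a15, 0.921 to 2.674 for Slc38a9, -2.573 to -1.086 for Slc38a7, 0.292 to 1.585 for Slc16a13, 0.826 to 9.803 for Slc16a12, -10.151 to -3.577 for Slc16a4, 0.22 to 0.96 for Slc6a6, 0.016 to 1.034 for Slc7a11, -1.747 to -1.093 for Slc1a1 and -0.261 to -0.015 for Slc16a6. None of the 7 passed a test in any edgeR setting. A group left with 1 library was assumed to vary like the other.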
